A study of Rattus norvegicus with 3 samples.

Results

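Claudins and occludin are the membrane proteins that form the tight junctions of the kidney tubule, and their transcripts were compared between control and thallium (Tl) treated rat kidney. The 10 genes examined were Cldn1, Cldn2, Cldn3, Cldn4, Cldn7, Cldn8, Cldn10, Cldn16, Cldn19 and Ocln. Each was taken as the probe set that lists it as its only gene symbol in the platform annotation, which gave 10 probe sets for 10 of the 15037 named genes. Clariom S rat arrays had been hybridized with total RNA of kidney tissue, 1 array for the control rats and 1 for each Tl group. The rats were male Wistar rats, purchased at 7 weeks of age. The control group (4 rats in the study) received double distilled water intraperitoneally, and the Tl 2 days group (4 rats) and the Tl 5 days group (5 rats) received thallium sulfate by the same route. Of the Tl 5 days group, 2 rats died before the planned day. The sources used here do not say whether RNA was pooled across rats. The dose was a single 30 mg/kg by the study's methods, 30 mg/kg daily by the series design and 40 mg/kg daily by the sample labels, which also name spleen as the source although the titles name kidney.

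With 1 array per condition there was no replicate check, so no difference was tested, and differences of log2 signal between arrays are given as descriptions. The base of the logarithm was taken from folds in the text of the study. In bulk tissue, fewer cells of a type and less RNA per cell cannot be told apart. The control array carried the marker genes expected of kidney at high signal (15 of 15 proximal tubule genes and 8 of 8 thick ascending limb genes lay above 95% of the 63 ERCC control probe sets), while 0 of 2 B cell and 0 of 5 T cell genes did so. Both comparisons with control used the same control array.

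Tight junctions seal the space between neighbouring epithelial cells and set which ions pass through it. Claudins form the strands of the junction, and each segment of the nephron carries its own set, so that some claudins act as pores for cations, anions or water and others as barriers. Occludin joins the same strands and helps to regulate them, and scaffold proteins of the cytoplasmic plaque tie both to the actin cytoskeleton.

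Of the 10 genes, 3 (Cldn1, Cldn4 and Cldn7) were more than 2-fold higher and 3 (Cldn10, Cldn16 and Ocln) more than 2-fold lower than control at 2 days. At 5 days Cldn1, Cldn4 and Cldn7 were again more than 2-fold higher and Cldn10, Cldn16 and Ocln more than 2-fold lower. Over all named genes, 6.03% were more than 2-fold higher and 4.65% more than 2-fold lower at 2 days than on the control array, and 5.37% and 4.87% at 5 days. Among 1153 probe sets marked as negative controls these shares were larger, with 8.33% higher and 11.6% lower at 2 days and 10.9% and 7.89% at 5 days. These probe sets were not all dim. On the control array their median signal was 6.56, beside 6.89 over all named genes, and their 95th percentile was 10.9. The share of them that reached a gene's signal, given below, is therefore no measure of background. The remaining 4 genes (Cldn2, Cldn3, Cldn8 and Cldn19) stayed within 2-fold at both times. The median log2 difference of the 10 genes was 0.25 at 2 days and 0 at 5 days, beside a median of 0 over all named genes in both. The individual differences ran from -1.64 to 4.23 and from -2.79 to 4.27 on the log2 scale.

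**Figure D1:**
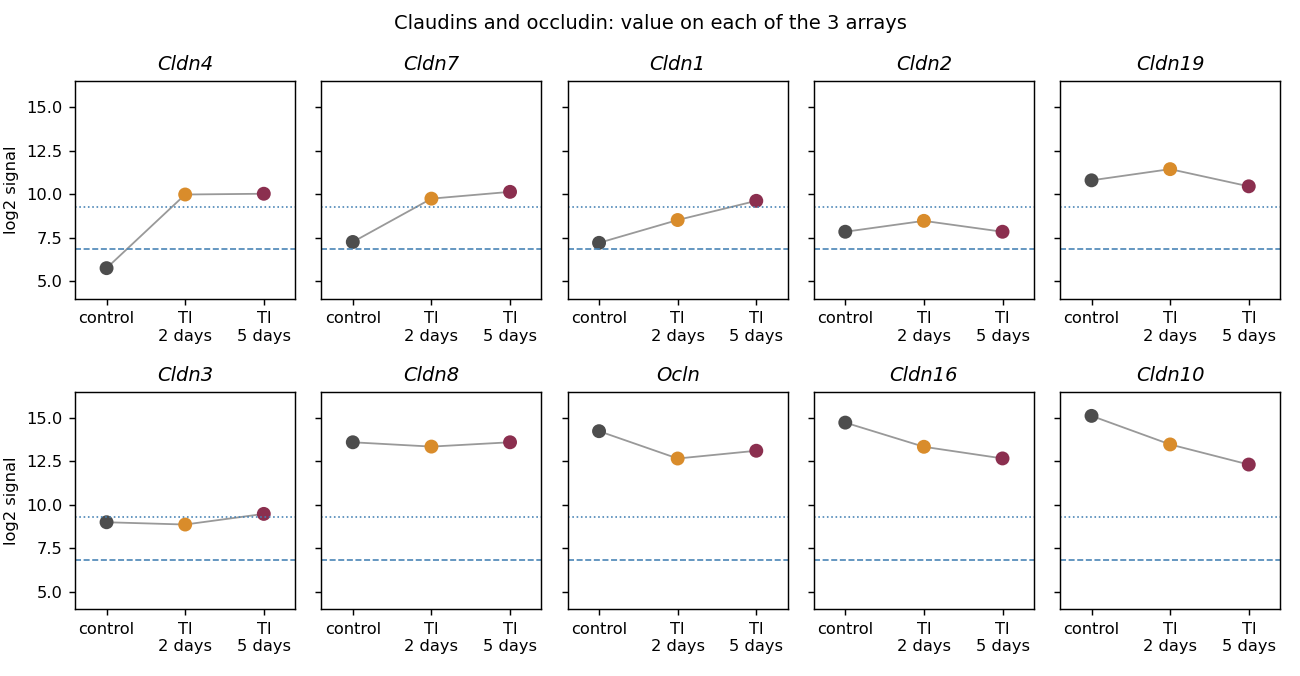
Log2 signal (vertical axis) of each of the 10 genes on the 3 arrays (1 point per array, joined by a line). The dashed and dotted lines mark the 95th percentile (6.83) and the highest value (9.28) of the ERCC control probe sets, and Cldn4 on the control array is the only point under the dashed line.

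Cldn4, a claudin of the collecting duct and thin limb, had the largest difference of the 10. Its log2 signal was 5.76 on the control array, 9.98 at 2 days and 10.03 at 5 days. Both Tl arrays were thus well above the control array and close to each other. The log2 differences from control were 4.23 and 4.27. Its control signal was dim, below the 95th percentile of the ERCC probes: 6 of the 63 ERCC probe sets and 63.8% of the negative control probe sets reached or exceeded it. When every value under that percentile was raised to it, the differences were 3.16 and 3.20 (8.91-fold and 9.19-fold), which ranked 62 and 47 from the highest among all named genes treated in the same way.

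Cldn7, a basolateral as well as junctional claudin of the distal nephron that binds the adhesion molecule Epcam, had log2 signals of 7.26 on the control array, 9.75 at 2 days and 10.14 at 5 days. The Tl arrays were again both above control, by 2.49 and 2.88 on the log2 scale (5.61-fold and 7.35-fold). Cldn1, a sealing claudin that in the kidney is best known from the parietal epithelium of Bowman's capsule, had log2 signals of 7.21, 8.52 and 9.62 in the same order. It was higher than control by 1.31 at 2 days and by 2.41 at 5 days (2.48-fold and 5.32-fold), but relative to Gapdh the 2 day difference was 0.66, within 2-fold. Between the Tl groups it was higher by 1.10 at 5 days, and it was the only one of the 10 genes more than 2-fold higher in that direct comparison, in which 2.21% of all named genes were higher and 3.07% lower. The control signals of Cldn7 and Cldn1 lay above the ERCC 95th percentile but below the highest ERCC value, and 37.0% and 37.6% of the negative control probe sets reached them. With all values raised to the highest ERCC level (9.28), 0 of the 10 genes were more than 2-fold higher at either time. This setting was chosen after the data were seen, and in it 2.60% of all named genes were higher at 2 days and 2.79% at 5 days. Cldn4 then differed by 0.70 and 0.74, Cldn7 by 0.46 and 0.85, and Cldn1 by 0 and 0.34. In the same setting 3 of the 10 genes were more than 2-fold lower at each time, beside 2.39% and 2.51% of all named genes.

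Cldn10 had the largest negative difference. The gene gives rise to isoforms that form a cation pore in the thick ascending limb and an anion pore in the proximal tubule, and its single probe set does not report them separately. Its log2 signal was 15.11 on the control array, 13.47 at 2 days and 12.32 at 5 days. Each Tl array was below control, and the 5 day array below the 2 day array. The differences from control were -1.64 and -2.79 on the log2 scale, which left 0.321 and 0.144 of the control signal. The difference between the Tl groups was -1.15, and Cldn10 was the only one of the 10 genes more than 2-fold lower at 5 days than at 2 days.

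Cldn16 is the claudin of the thick ascending limb needed for paracellular reabsorption of magnesium and calcium, and in humans its loss causes familial hypomagnesaemia with hypercalciuria. Its log2 signal was 14.73 on the control array, 13.34 at 2 days and 12.67 at 5 days. It was lower than control by more than 2-fold in both groups, with differences of -1.39 and -2.06. Cldn19, its partner in the same strands and the other gene of that human disease, had log2 signals of 10.80, 11.44 and 10.45. Its differences from control were 0.64 and -0.34, both within 2-fold and opposite in sign. The signals of Cldn16 and Cldn19 were above the highest ERCC probe set on all 3 arrays.

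Ocln had log2 signals of 14.24 on the control array, 12.67 at 2 days and 13.11 at 5 days. Both Tl arrays were below control, with differences of -1.57 and -1.12 on the log2 scale, and the 5 day array was higher than the 2 day array by 0.45.

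The genes that stayed within 2-fold came from different segments. Cldn2, which forms cation and water pores in the proximal tubule, had log2 signals of 7.84 on the control array, 8.47 at 2 days and 7.84 at 5 days. Cldn8, a distal claudin that recruits Cldn4 to the junction in collecting duct cells, had 13.60, 13.35 and 13.60. For both genes the deposited values of the control and Tl 5 days arrays were exactly equal, as they were for 20.2% of all named genes, so for these the Tl 5 days difference was 0. Cldn3, a sealing claudin of the thick ascending limb and more distal segments, had 9.01, 8.87 and 9.48. Its differences from control were -0.13 and 0.48. The control signals of Cldn2 and Cldn3 were below the highest ERCC value.

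**Figure D2:**
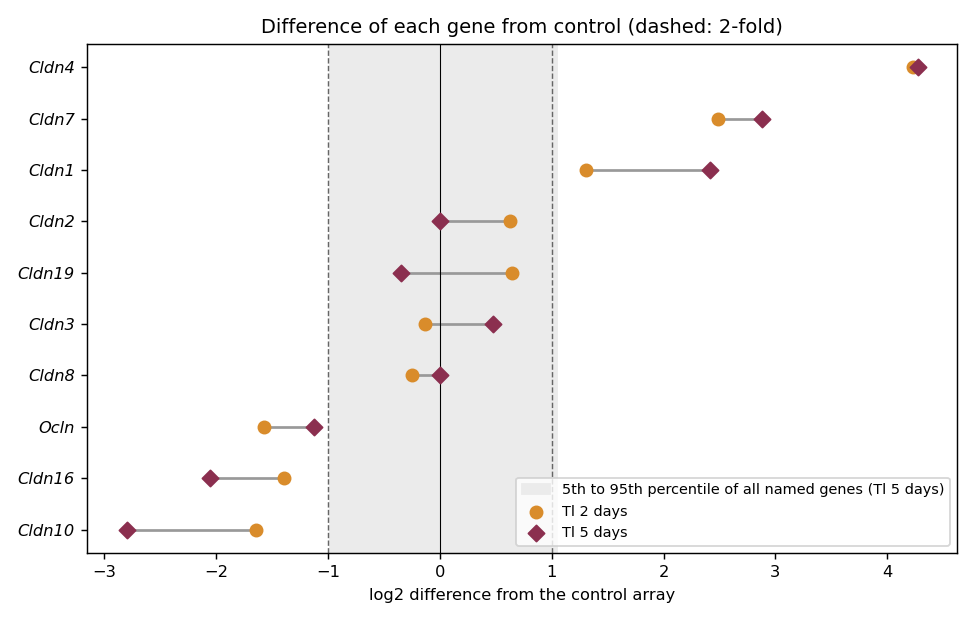
Log2 difference from the control array (horizontal axis) for each gene, with circles for the Tl 2 days array and diamonds for the Tl 5 days array. The dashed lines mark 2-fold and the grey band spans the 5th to 95th percentile of all named genes in the Tl 5 days comparison (-0.98 to 1.04). Cldn4, Cldn7 and Cldn1 lie above the upper line and Ocln, Cldn16 and Cldn10 below the lower line at both times.

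Cldn16 and Cldn1, and likewise Cldn3 and Cldn4, are next to each other in the rat genome, with 0 protein-coding genes between them in the RefSeq annotation. Cldn16 and Cldn1 are neighbours on chromosome 11, and Cldn16 was over 2-fold lower while Cldn1 was over 2-fold higher in both Tl groups. Cldn3 and Cldn4 are neighbours on chromosome 12, and Cldn4 was over 2-fold higher in both Tl groups while Cldn3 stayed within 2-fold.

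The promoters of 3 genes with differences in both directions are shown because they hold different numbers of the E-box CAGGTG, a site to which repressors of the Snail and Zeb families bind in epithelial genes. A promoter here is the RefSeq window from 250 bases before to 50 bases after the gene's start, in the GRCr8 build, and 8 of the 10 genes had one. Cldn2 and Cldn4 were not matched. Capitals mark CAGGTG or its reverse complement CACCTG.
Cldn7 (chr10:55188420-55188719, plus strand): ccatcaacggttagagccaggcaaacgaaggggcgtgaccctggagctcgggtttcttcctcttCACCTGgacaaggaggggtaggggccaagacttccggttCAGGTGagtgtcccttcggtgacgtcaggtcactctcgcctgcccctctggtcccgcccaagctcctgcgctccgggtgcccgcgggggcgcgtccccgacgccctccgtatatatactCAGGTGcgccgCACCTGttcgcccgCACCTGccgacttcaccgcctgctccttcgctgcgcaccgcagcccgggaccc
Ocln (chr2:33441149-33441448, minus strand): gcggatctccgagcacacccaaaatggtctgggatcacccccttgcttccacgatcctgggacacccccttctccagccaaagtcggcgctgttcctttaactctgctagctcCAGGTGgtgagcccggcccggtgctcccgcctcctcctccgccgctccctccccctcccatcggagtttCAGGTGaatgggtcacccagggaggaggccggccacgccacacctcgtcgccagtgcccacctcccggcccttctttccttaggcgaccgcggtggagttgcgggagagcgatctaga
Cldn1 (chr11:87926126-87926425, plus strand): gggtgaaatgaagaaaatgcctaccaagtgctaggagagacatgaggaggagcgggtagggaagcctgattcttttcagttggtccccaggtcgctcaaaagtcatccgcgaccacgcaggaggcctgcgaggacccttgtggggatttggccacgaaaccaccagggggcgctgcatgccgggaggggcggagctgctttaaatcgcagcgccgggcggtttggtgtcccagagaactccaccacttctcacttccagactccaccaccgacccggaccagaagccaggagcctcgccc
Cldn7, higher in both Tl groups, held 5 matches. Ocln, lower in both, held 2, and Cldn1, higher in both, held 0. Of the other genes Cldn3 held 1 and Cldn8, Cldn10, Cldn16 and Cldn19 held 0. Only 1 window per gene was searched, while RefSeq lists 2 transcripts for Cldn10, 2 for Cldn19 and 9 for Ocln. Any other start of these genes was not covered. Among all 33469 promoters of the same length, 18.8% held at least 1 match and 4 promoters, Cldn7 among them, held 5 or more. The motifs were chosen after the sequences had been read. Searched on both strands, the AP-1 motif TGANTCA (in 7.33% of all promoters), the Grainyhead motif AACCNGTT (2.10%) and TATAAA (14.2%) had 0 matches in each of the 8 windows. A match is a description of the sequence only.

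The genes were next set against markers of the segments in which they are known to be made. In the thick ascending limb, 7 of 8 measured markers were over 2-fold lower at both times, with median log2 differences of -3.04 and -3.58. The first markers of that list were Umod (uromodulin), at -2.63 and -9.46, and Slc12a1, the sodium, potassium and chloride cotransporter, at -3.59 and -3.03. Relative to the median of the list, Cldn16 was higher by 1.66 and 1.52, and Cldn10 by 1.40 and 0.78. Cldn19 was higher than the list by 3.69 and 3.23, and Cldn3 by 2.91 and 4.06. Cldn16 thus differed from control in the direction of the markers and by less than their median, and it lay above 7 of 8 markers at 2 days and above 6 of 8 at 5 days. Cldn19 lay above 8 and 7 of the 8 markers, next to Ptger3, a prostaglandin receptor (0.52 and -0.20), a marker named after its values were seen.

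The 15 proximal tubule markers had median differences of -0.41 and -0.06, with 0 over 2-fold higher and 3 lower at 2 days and 4 higher and 2 lower at 5 days. Slc34a1, the phosphate cotransporter, was at -1.19 and -1.44, and Slc5a2, the glucose cotransporter, at -0.06 and 0.30. Cldn10 lay below all 15 of them at both times, at -1.23 and -2.73 relative to their median. Cldn2 lay 1.04 above the median at 2 days, higher than 14 of the 15 markers, and 0.06 above it at 5 days, higher than 8 of them. Its signals were below the highest ERCC value on all 3 arrays. On the control, 2 day and 5 day arrays, 29.1%, 20.6% and 29.4% of the negative control probe sets reached them. Ocln, which is made along the whole tubule, lay below all 15 markers at 2 days and below 13 at 5 days. Against the 9 collecting duct markers described next it lay below 8 at 2 days and below 6 at 5 days, where it was 0.05 below their median.

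Of 9 measured markers of collecting duct principal cells, 4 were over 2-fold lower at 2 days and 5 at 5 days, and 0 were higher. Their medians were -0.70 and -1.08, with the water channels Aqp2 at -2.09 and -2.52 and Aqp3 at -1.40 and -0.67. Cldn4 and Cldn7 lay above all 9 at both times, by 4.93 and 5.35 (Cldn4) and by 3.19 and 3.95 (Cldn7) relative to the median. With dim values raised to the ERCC 95th percentile, the medians of the markers were -0.06 and -0.67, and Cldn4 was still above all 9, by 3.22 and 3.87. Avpr2, named after its values were seen, was among the lower markers at both times but below that percentile on all 3 arrays. With dim values raised its difference was 0 at both times, so it no longer counted as lower. Cldn8, of the same segment, lay within the range of the markers, 0.45 and 1.08 above their median, but with dim values raised it was 0.18 below the median at 2 days. In the 8 markers of intercalated cells the medians were -0.64 and -1.33, with 0 over 2-fold higher and 4 lower at each time. In the 7 measured markers of the distal convoluted and connecting tubule they were -0.45 and 0, with 1 higher and 3 lower at 2 days and 2 higher and 3 lower at 5 days. Both medians were the values of Pvalb, which was below the ERCC 95th percentile on all 3 arrays. S100g was below it on the control array. The other markers were named after their values were seen. Slc12a3 was at -1.45 and -2.80, Calb1 at -4.18 and -6.47, and Slc8a1 at -2.68 and -4.56. Trpv5, at 3.43 and 1.64, and Wnk4, at 0.37 and 1.40, went the other way.

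**Figure D3:**
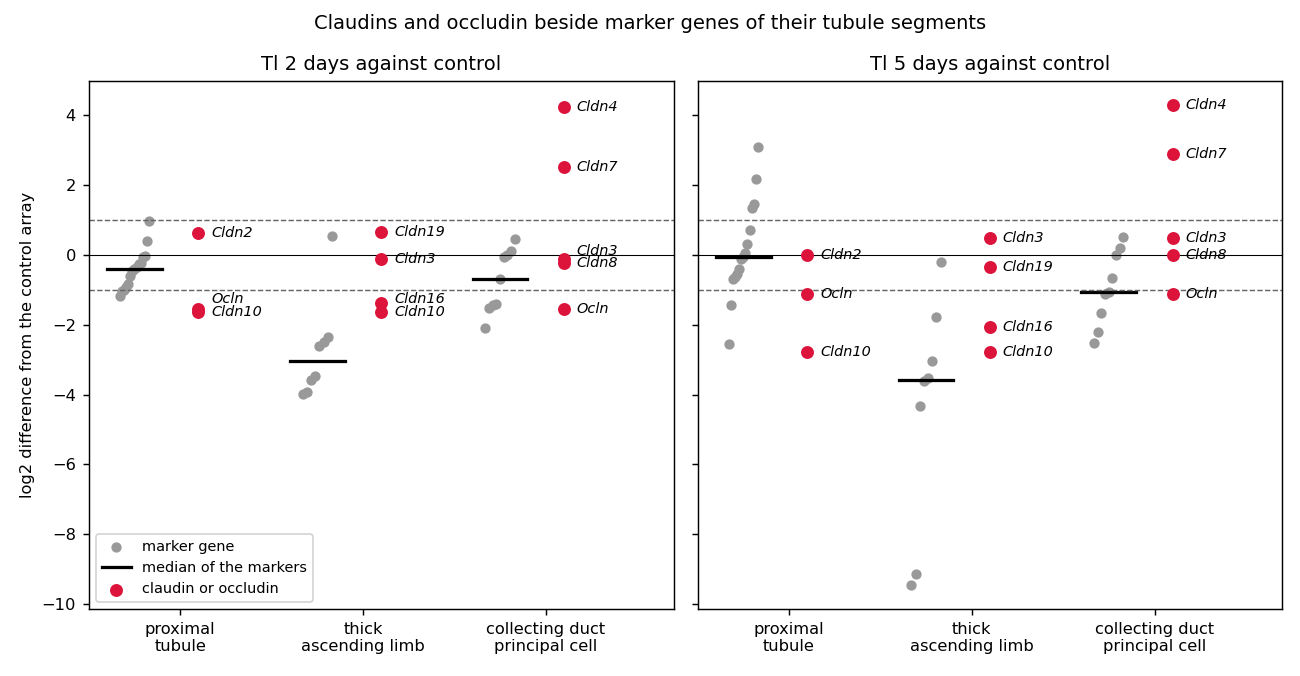
Log2 difference from the control array (vertical axis) for marker genes of 3 tubule segments (grey points, with the median as a black bar) and for the claudins and occludin known from each segment (red points), in the Tl 2 days and Tl 5 days comparisons. Cldn4 and Cldn7 lie above every collecting duct marker, and Cldn10 and Cldn16 lie above the median of the thick ascending limb markers while below control.

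Markers of other cell states and cell types also differed from control. Of 13 measured genes of injured and dedifferentiated tubule epithelium, at 2 days 9 were over 2-fold higher and 0 lower, and at 5 days 8 and 1, with medians of 2.18 and 2.31. The shares of all named genes were 6.03% higher and 4.65% lower at 2 days, and 5.37% and 4.87% at 5 days. Krt18, named after its values were seen, had a dim control signal (5.08). With dim values raised to the ERCC 95th percentile its differences were 0.57 and 0.78, within 2-fold. Havcr1, the injury marker Kim-1, had a log2 signal of 5.52 on the control array, 18.47 at 2 days and 18.46 at 5 days, so that the size of its difference rests on a dim control value. Vcam1, an adhesion molecule, had 8.59, 10.12 and 8.83. The median signal of this list was 8.02 on the control array and 12.31 and 12.32 on the Tl arrays, and its part in the higher signals of Cldn1, Cldn4 and Cldn7 was not tested. Urothelium of the renal pelvis also makes Cldn4 and Cldn7. Its 4 measured uroplakin genes had log2 signals from 3.03 to 4.13 on the control array, 3.14 to 4.13 on the Tl 2 days array and 3.03 to 4.13 on the Tl 5 days array, and 0 of 4 were above the 95th percentile of the ERCC controls on any array. Podocyte genes (4 measured) had medians of -0.09 and -0.95, endothelial genes (6 measured) of -0.25 and -0.89, fibroblast genes (4 measured) of 0.71 and 0.28 and macrophage genes (7 measured, 4 and 2 of them over 2-fold higher) of 1.16 and 0.95. The macrophage gene Csf1r, named after its values were seen, had a dim control signal of 6.65. Its 2 day difference was 1.16, or 0.98 with dim values raised.

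Of 15 other measured claudins, 0 were over 2-fold higher or lower than control at either time, and 7 and 6 of them had exactly the control value. On the control array, only 3 of the 15 were above the 95th percentile of the ERCC controls, and these were Cldn5, the claudin of endothelium, Cldn12 and Cldn17. Cldn12, a broadly expressed claudin, had log2 signals of 9.45, 9.82 and 10.06 on the control, 2 day and 5 day arrays. Cldn5 had 8.15, 8.15 and 7.82, and Cldn17 had 7.08, 7.43 and 7.43.

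Of 12 measured membrane partners of the tight junction, 2 were over 2-fold higher and 1 lower at both times. Beside these stand 6.03% higher and 4.65% lower of all named genes at 2 days, and 5.37% and 4.87% at 5 days. Clmp, a cell adhesion molecule of the immunoglobulin family found at junctions, had log2 signals of 6.30 on the control array, 8.37 at 2 days and 8.51 at 5 days, the first of these below the ERCC 95th percentile, and with dim values raised to that level its differences were 1.54 and 1.68. Lsr (angulin-1), which marks the corners where 3 cells meet, had 7.73, 8.78 and 9.21. Marveld2 (tricellulin), which belongs to the family of occludin and is brought to those corners by Lsr, had 11.16, 9.68 and 9.74. Marveld2 thus differed from control by -1.48 and -1.42, in the direction of Ocln, while Lsr was higher by 1.05 and 1.48. The other angulin named by the rule, Ildr1, was at -0.95 and -0.34. With the arrays centred on the median of their genes, which moved all differences by -0.12 at 2 days and by -0.05 at 5 days, 1 membrane partner was over 2-fold higher at 2 days and 2 were lower. In that setting 5.00% of all named genes were higher and 5.81% lower at 2 days.

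Among 19 measured plaque and polarity proteins, 2 were over 2-fold higher at both times, and 1 was lower at 2 days and 0 at 5 days. The 2 day counts stand near the shares of all named genes (6.03% higher and 4.65% lower at 2 days). Relative to Gapdh 0 were higher and 3 lower at 5 days, beside 2.06% higher and 16.3% lower of all named genes in that setting. Prkci, the atypical protein kinase C of the apical polarity complex, was higher than control by 1.97 and 1.62, and Ybx3, a transcription factor that binds the scaffold protein ZO-1, by 1.17 and 1.10. Cgnl1 (paracingulin) had log2 signals of 16.17 on the control array, 14.65 at 2 days and 15.98 at 5 days, so that the 5 day array was close to control. Mpdz, a scaffold with many PDZ domains, was at -0.62 and -0.99. Tjp1 (ZO-1), the main scaffold of claudin strands, named here after its value was seen, was at -0.01 and -0.05.

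Of 34 measured genes that regulate claudins, 3 were over 2-fold higher and 6 lower at both times, with medians of 0 and 0.04. Of all named genes, 6.03% were higher and 4.65% lower at 2 days, and 5.37% and 4.87% at 5 days. With dim values raised to the ERCC 95th percentile, 1 regulator was higher at 2 days and 2 at 5 days. These counts stand near the 4.40% and 4.13% of all named genes that were higher in that setting. The number lower stayed at 6, beside 3.44% and 3.57% of all named genes. Of the regulators, 6 are also on the segment lists (Casr, Egf, Gata3, Hnf4a, Tfcp2l1 and Wnk4). Casr, the calcium-sensing receptor that controls claudins of the thick ascending limb, had log2 signals of 13.35, 9.42 and 9.72 on the control, 2 day and 5 day arrays. Egf, the growth factor made in the same segment and in the distal convoluted tubule, had 18.81, 15.35 and 9.69. Prss8 (prostasin), a membrane serine protease of epithelia, was at -2.25 and -1.78, and Epha2, a receptor kinase reported to phosphorylate claudin-4, had log2 signals of 5.09, 7.22 and 7.11. The control signal of Epha2 was below that percentile, and with the floor its differences were 0.39 and 0.28, within 2-fold. The other higher genes, named after their values were seen, were Elf3, an epithelial transcription factor (1.16 and 1.41), Egfr at 2 days (1.07, or 0.70 with the floor, since its control signal of 6.46 was dim) and Wnk4 at 5 days (1.40). Wnk1 and Stk39, kinases of the WNK pathway, which phosphorylates claudins and salt cotransporters, were at -1.44 and -1.47 and at -1.26 and -2.04, and were also named after their values were seen.

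**Figure D4:**
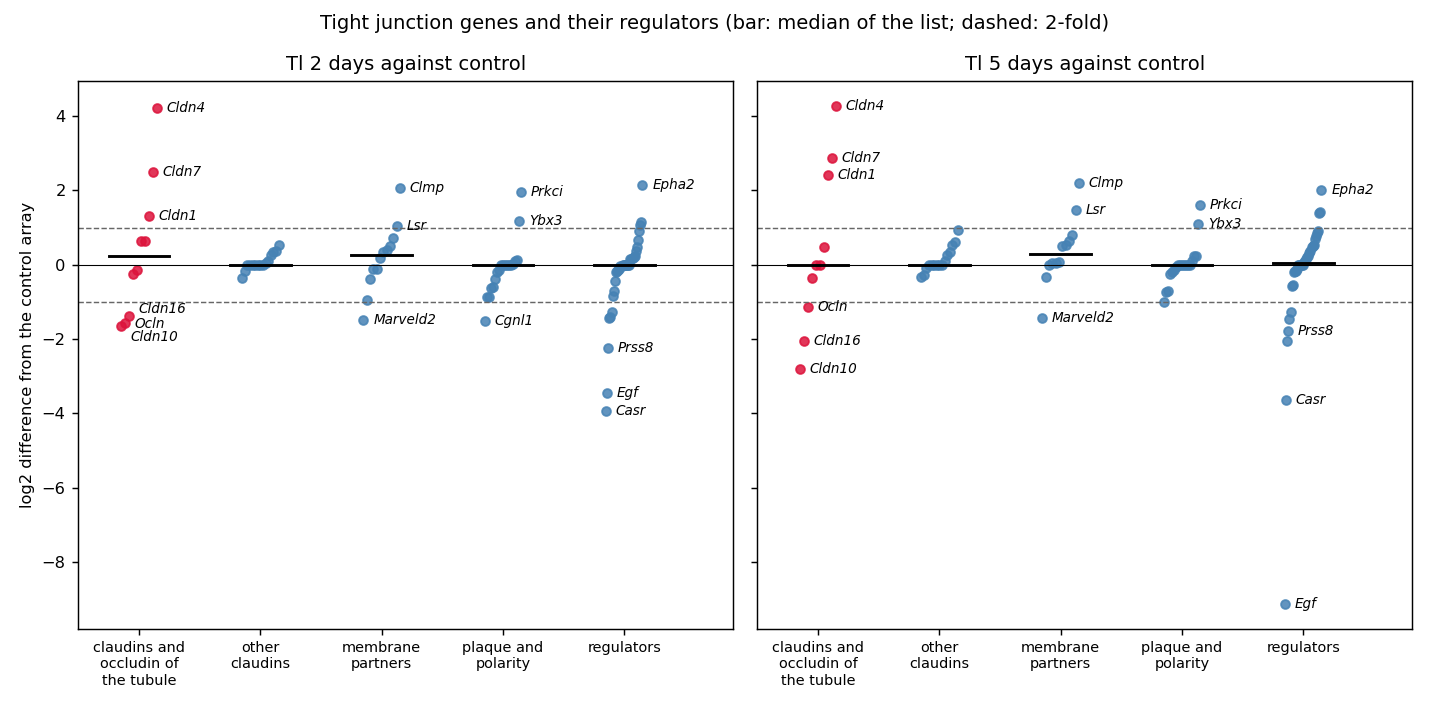
Log2 difference from the control array (vertical axis) for the 10 claudins and occludin (red) and for the measured genes of 4 further lists of tight junction genes and their regulators (blue), with the median of each list as a black bar and 2-fold as dashed lines, from the values as deposited with no floor. The other claudins stay between the dashed lines in both comparisons, but only 3 of the 15 were above the ERCC 95th percentile on the control array. Of the 10 genes, 4 also stay between the lines, and the rest extend to both sides.

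The genes whose pattern over the 3 arrays was most like each claudin were found among 7931 genes, by Euclidean distance between log2 signals after subtraction of each gene's mean. These 7931 were the genes whose brightest array was above the median signal of that array, which could be a Tl array alone. The nearest to Cldn4 were Myc (distance 0.33) and Slc34a2 (0.36), and 4 genes lay within a distance of 0.5. The nearest to Cldn7 were Lgals3 (0.097) and Zfp36 (0.098), and to Cldn1 Rps20 (0.095) and Prrg4 (0.14). Cldn10 was nearest to Slc12a3, the sodium and chloride cotransporter of the distal convoluted tubule (0.16), and to Ttc21b (0.19). Cldn16 was nearest to Agt (0.036) and Bdh1 (0.050), with 117 genes within 0.5. Ocln was nearest to Lzts3 (0.010) and Slc43a2 (0.013), with 306 genes within 0.5. With only 3 arrays many genes share a pattern this closely.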

How the data were processed

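The 10 genes, the gene lists and the measures were chosen with earlier results of these data known. The authors deposited a log2 signal for every probe set of the 3 arrays and named Transcriptome Analysis Console as their software. Its version, the summarization and the normalization are not given in the sources used here. Base 2 was inferred from folds printed in the study's text. Of 24834 probe sets, 15049 had 1 gene symbol in the platform annotation, 0 had several and 9785 were not named. Probe sets of 1 gene were averaged (10 genes, none of them claudins), which gave 15037 genes.

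Differences of log2 values between arrays, counts past 2-fold and medians of lists were computed. No p-value was given, since each condition had 1 array, and this number of arrays sets the precision. The 63 ERCC probe sets had nearly fixed values on all arrays and served as a fixed reference for dim signals, not as a background measured on each array. Besides the claudins and occludin, the text names up to 4 genes of each junction list with the largest absolute difference from control. For this, a gene's brightest array had to be above the median signal of all named genes on that array. A gene could thus pass through a Tl array alone. Clmp and Epha2 did so, with control signals of 6.30 and 5.09 under the control median of 6.89. The text also names the first 2 markers of the 3 main tubule lists and of the dedifferentiation list, and the 2 nearest genes by pattern. Alternatives were quantile normalization, median centring, values relative to Gapdh, floors at ERCC levels, fold limits of 1.5 and 3, dim genes left out, and other summaries of the marker lists. A change of less than 1.5-fold between settings counted as unchanged. The computation of differences and counts was tested on simulated arrays. The scripts ran under Python 3.11.15 with pandas 2.3.3 and numpy 2.4.6, and figures were drawn with matplotlib 3.10.9.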

Additional observations from a re-analysis of the deposited data

Results flagged for a closer look

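Cldn3 and Cldn19 had opposite signs at the 2 times. Cldn3 differed from control by -0.13 at 2 days and by 0.48 at 5 days, and Cldn19 by 0.64 and by -0.34, all on the log2 scale and within 2-fold. The difference between the times was not tested, since each has 1 array. Opposite signs occurred for 13.9% of all named genes. Relative to Gapdh, which was itself higher by 0.65 and 0.63 in the Tl groups, both genes were negative at both times.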

How the results depend on the processing

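Quantile normalization and centring moved no difference of the 10 genes by 1.5-fold. Relative to Gapdh, 20 differences moved by more than that, which were all those of the 10 genes from control. The 10 differences between the Tl groups were unchanged by that rule. Cldn1 at 2 days was within 2-fold (0.66) relative to Gapdh. With the floor at the ERCC 95th percentile, 2 differences moved, those of Cldn4 from control, to 3.16 and 3.20. With the floor at the highest ERCC value, 0 of the 10 genes were over 2-fold higher at 2 days (2.60% of all named genes) and 0 at 5 days (2.79%). The number lower was 3 at each time (2.39% and 2.51%). At a limit of 1.5-fold 5 genes were higher at 2 days (12% of all named genes), and between the Tl groups 2 were higher (6.37%) and 4 lower (7.67%) at 5 days. At 3-fold 1 was lower at 2 days (1.72%), and 0 were higher (0.599%) and 0 lower (1.35%) between the Tl groups. In the Tl 2 days group, membrane partners over 2-fold higher and lower numbered 1 and 2 after quantile normalization, 1 and 2 after centring, and 1 and 3 relative to Gapdh, with 1 higher relative to Gapdh at 5 days. Of all named genes, 5.81% were lower at 2 days after centring and 18.6% relative to Gapdh (16.3% at 5 days). After quantile normalization 5.60% were higher and 4.93% lower at 2 days, and after centring 5.00% were higher. Plaque proteins that were lower numbered 2 after centring and 6 relative to Gapdh at 2 days, and 1, 1 and 3 after quantile normalization, centring and Gapdh at 5 days. Relative to Gapdh 1 and 0 plaque proteins and 1 and 1 regulators were higher at the 2 times, beside 2.49% and 2.06% of all named genes. Medians relative to Gapdh were -0.65 and -0.63 for other claudins, -0.39 and -0.35 for membrane partners, -0.65 and -0.63 for plaque proteins and -0.65 and -0.60 for regulators. With the mean of the thick ascending limb markers in place of the median, in which Umod and Egf at 5 days weigh more, the distances at 5 days were 4.86 for Cldn3, 1.59 for Cldn10, 2.33 for Cldn16 and 4.04 for Cldn19, and between the Tl groups 2.26, 0.49, 0.98 and 0.66. With the median the distances between the Tl groups were 1.14, -0.62, -0.14 and -0.46, so the sign turned for Cldn10, Cldn16 and Cldn19. An alternative added after the data were seen raised dim values to the ERCC 95th percentile. There 1 regulator was over 2-fold higher at 2 days, beside 4.40% of all named genes. Distances from the collecting duct markers at 2 days were then -0.068 for Cldn3, 3.22 for Cldn4 (3.87 at 5 days), 2.55 for Cldn7, -0.18 for Cldn8 and -1.51 for Ocln. Leaving out any 1 marker moved no distance by 1.5-fold. The alternative for genes with several probe sets was not run, since each gene had 1. No paired analysis was possible because each condition has 1 array.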
